A study of Homo sapiens with 6 samples.

Results

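The SLC25 family of mitochondrial carriers was followed through RNA sequencing of cells labelled HepG2, an established line from a human liver tumour. Genes were taken by name, as every row of the count table called SLC25A plus a number, which gave 46 genes of 27452. Antisense and pseudogene rows that carry an SLC25A name were left out of that set. The study compared 3 libraries from a line carrying a control shRNA (short hairpin RNA) with 3 from a line carrying an shRNA against STAT3, a transcription factor of cytokine signalling. Both groups carry the HepG2 label and grew in the same medium (DMEM, supplemented with fetal bovine serum plus antibiotics), with no other treatment named. The labels do not give the hairpin sequences, the number of hairpins or of clones behind a line, or whether the numbered libraries come from separate cultures, so p-values speak only to the spread among the libraries at hand, possibly a technical one. Anything that differs between the 2 constructed lines apart from the hairpin cannot be told apart from it.

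Most SLC25 proteins sit in the inner mitochondrial membrane and exchange nucleotides, phosphate, carboxylic acids, amino acids, cofactors and metal ions between the cytosol and the matrix. Most are built from repeats of a short module with paired membrane helices, and most swap one substrate for another. In hepatocytes they link the matrix with cytosolic pathways such as urea synthesis, gluconeogenesis, fatty acid synthesis and the transfer of reducing equivalents.

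Libraries held 17408543 to 25862027 counts. STAT3 ranged over 246 to 262 CPM with the control hairpin and 34.8 to 36.2 CPM with the STAT3 hairpin, where CPM are counts relative to the composition-scaled library size. The STAT3 level of each library thus matched its label. Defining hepatocyte transcripts were nearly absent. Of 14 hepatocyte markers looked for, 6 had a row in the table, and the others, AFP, APOB and TTR among them, had none. Of the 6 with a row, 4 had at most 3 counts in every library, albumin (ALB), APOA1 and FGG among them. The 6 summed to 2.22 to 3.95 CPM with the control hairpin but 5.67 to 8.64 CPM with the STAT3 hairpin. HNF4A, a nuclear receptor of hepatocytes, averaged 1.51 ± 0.26 CPM with the control and 6.58 ± 1.41 CPM with the STAT3 hairpin (SD, n = 3 each) and carried that difference. Transferrin (TF), the only other hepatocyte marker tested, averaged 1.59 and 0.806 CPM and was not called. The 6 fibroblast markers with a row summed to 53.3 to 61.3 CPM with the control hairpin but 36.1 to 38.0 CPM with the STAT3 hairpin. COL1A1 alone gave the lower sum (40.3 and 15.3 CPM), since of the other 5 only COL3A1, at 8 counts or fewer, was also lower on average, and DCN averaged 11.9 and 14.6 CPM. The 3 leukocyte markers with a row, and likewise the 3 intestinal ones, summed to less than 1 CPM in every library. The part of these differences in the carrier values was not tested.

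Of the 46 carriers, 41 had enough counts to be tested. The other 5 were SLC25A2 and SLC25A47, with 1 count over all libraries, SLC25A52 with 2, SLC25A34 with 1 to 10 per library, and SLC25A41 with 3 to 8. With a floor of 3 counts, a count of 0 allows a level of 0.113 CPM in the deepest library and 0.175 CPM in the shallowest. This limit speaks to counting error alone. SLC25A31 and SLC25A48 had no row in the count table, so they were not analysed.

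Tested carriers spanned 0.506 to 1109 CPM in the control means. To compare genes, CPM was divided by the length of the longest annotated transcript, which gave a range of 0.206 to 538 CPM per kilobase. On that per-length scale the ADP/ATP carriers SLC25A6 (538 ± 121) and SLC25A5 (535 ± 34.9) led the control libraries and did not differ from each other beyond their SD (n = 3). The next levels were those of the glutathione carrier SLC25A39 (125 ± 17.6 CPM per kilobase), the citrate carrier SLC25A1 (117 ± 25.5) and the phosphate carrier SLC25A3 (107 ± 12.9), which overlapped within their SD. This order depends on the lengths used, 2217, 1648 and 6087 bases, and the transcripts expressed were not determined. By control mean CPM, SLC25A3 (650) stood well above SLC25A39 (277) and SLC25A1 (192). Most of the rest, 33 carriers, lay between 1 and 50 CPM per kilobase. SLC25A3, SLC25A5, SLC25A6 and SLC25A39 together held 61.7% of all carrier counts.

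**Figure D1:**
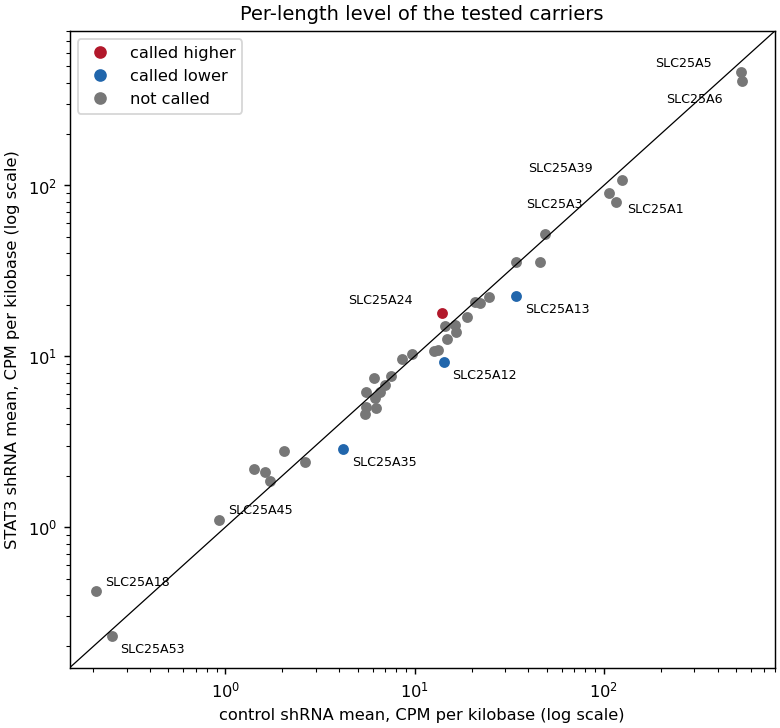
Mean level of each of the 41 tested carriers in control shRNA libraries (x axis) against STAT3 shRNA libraries (y axis), in CPM per kilobase on log scales, with a line of equal levels (n = 3 per group). SLC25A5 and SLC25A6 stand highest in both groups, and most points lie close to the line.

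The comparison of the groups asked which carriers differed with the STAT3 shRNA. The aspartate/glutamate carriers SLC25A12 and SLC25A13 both fell, to about the same extent. The carrier SLC25A35 also fell, and the ATP-Mg/phosphate carrier SLC25A24 rose. The remaining 37 tested carriers did not pass a false discovery rate (FDR) of 0.05. The test was edgeR's quasi-likelihood test over all 14999 tested genes, with Benjamini-Hochberg adjustment, and log2 fold changes (STAT3 shRNA over control) carry their SE. Of the 41 carriers 4 were called, or 9.76%, where 17.5% of all tested genes were. So few calls allow no reading of this gap. Family members under other names, such as UCP2, are outside the count. The 3 lower carriers compare with 8.13% of all genes called lower, and the 1 higher carrier with 9.39% called higher. The median log2 fold change of the carriers was -0.12, against -0.01 over all tested genes. With library totals the carrier median was -0.03, while the median of all genes also rose, by 0.0961. In the main fit 26 of the 41 carriers were below 0 (63.4%, against 50.9% of all tested genes). In 12 of 41 carriers the groups did not overlap (29.3%, against 35.7% of all tested genes), 7 with lower and 5 with higher STAT3 shRNA values, against 17.2% and 18.5% of all tested genes. The share of all tested genes called moved with the setting as well. Leaving out control library 1, 2 or 3 gave 26.5%, 9.88% or 16%, and leaving out STAT3 shRNA library 1, 2 or 3 gave 9.58%, 13.7% or 9.6%. Other scalings gave 17.5% (DESeq2 size factors), 17.8% (upper quartile) and 18.6% (library totals), and the remaining alternatives gave 10.6% (no low-count filter), 16.4% (DESeq2), 17.4% (limma-voom), 17.2% (non-robust dispersion) and 15.2% (library number as a block). No carrier was called higher with the block, or without control library 2 or 3 or any single STAT3 shRNA library, and those called lower numbered 8 without control library 1 and 5 with DESeq2 or without the low-count filter. The median size of a log2 fold change, sign set aside, was 0.22 for the carriers and 0.24 for all tested genes.

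**Figure D2:**
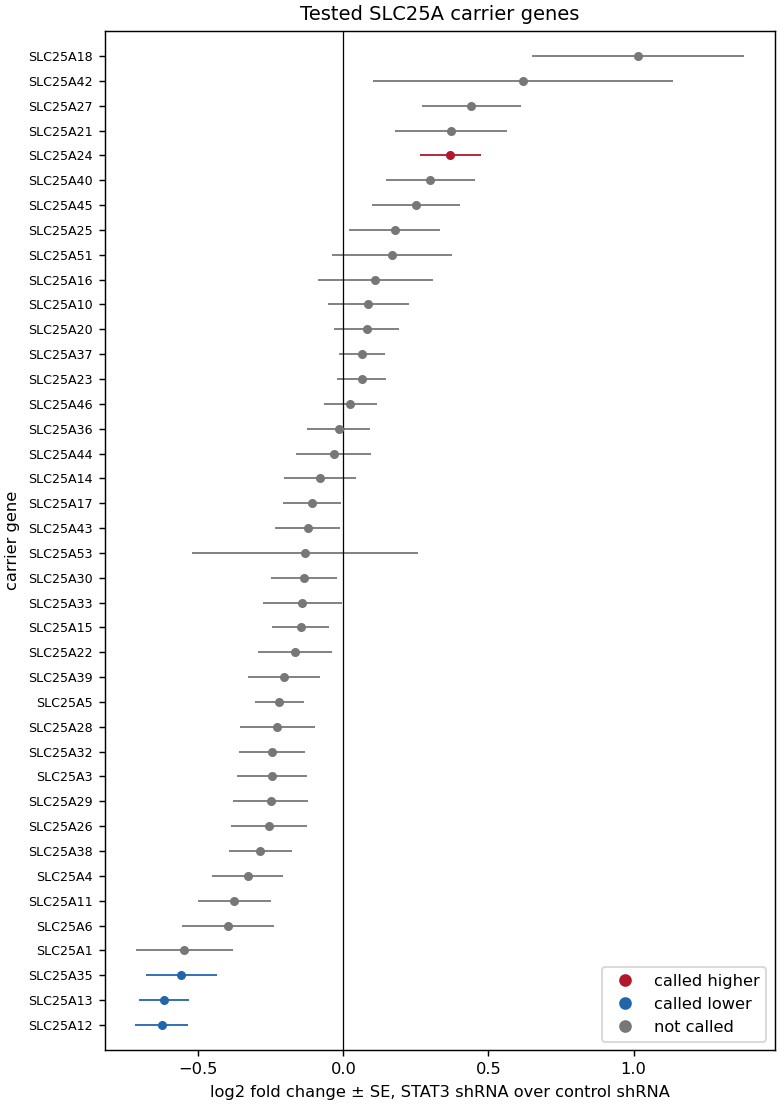
Log2 fold change (x axis, STAT3 shRNA over control shRNA, ± SE) of 40 of the 41 tested carriers (y axis, ordered by fold change), coloured by the edgeR call at an FDR of 0.05. SLC25A12, SLC25A13 and SLC25A35 are called lower, SLC25A24 is called higher, and 24 of the 40 lie within 0.25 of no change.

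Among 11 tested carriers of amino acids, acylcarnitine and glutathione, 2 were called lower and 0 higher (8.13% and 9.39% of all tested genes), with a median log2 fold change of -0.17. SLC25A13, or citrin, is the liver form of the carrier that exports aspartate from the matrix in exchange for glutamate, a step of the malate-aspartate shuttle and a source of aspartate for urea synthesis. Control libraries 1, 2 and 3 gave 115, 112 and 102 CPM of SLC25A13 (ENSG00000004864.13), and STAT3 shRNA libraries 1, 2 and 3 gave 72.5, 69.4 and 72.6 CPM. Library values are listed in this order throughout. All STAT3 shRNA libraries were below all control libraries. The mean of SLC25A13 fell from 110 ± 6.7 to 71.5 ± 1.83 CPM (SD over 3 libraries), which is 1.53-fold lower (log2 fold change -0.62 ± 0.0852, edgeR adjusted p = 0.00114). In bulk RNA such as this, fewer cells that express a gene and less RNA per cell cannot be told apart.

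SLC25A12, or aralar, is the form of the same carrier known from brain and muscle. SLC25A12 (ENSG00000115840.14) had 43.2, 40.4 and 43.6 CPM with the control hairpin, against 27.6, 27.9 and 26.8 CPM with the STAT3 hairpin, again without overlap. Its mean fell from 42.4 ± 1.77 to 27.5 ± 0.573 CPM, 1.54-fold lower (log2 fold change -0.63 ± 0.0911, edgeR adjusted p = 0.00154). Both carriers were called lower in all 14 alternative fits, with adjusted p up to 0.0119 for SLC25A13 and 0.0153 for SLC25A12. The log2 ratio of SLC25A13 to SLC25A12 counts was 1.37 ± 0.126 in the control and 1.38 ± 0.0626 in the STAT3 shRNA libraries (exact two-sided permutation p = 0.9, n = 3 per group, in a design that cannot go below 0.1). Summed, the pair had 158, 152 and 146 CPM with the control hairpin, against 100.1, 97.3 and 99.4 CPM with the STAT3 hairpin.

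**Figure D3:**
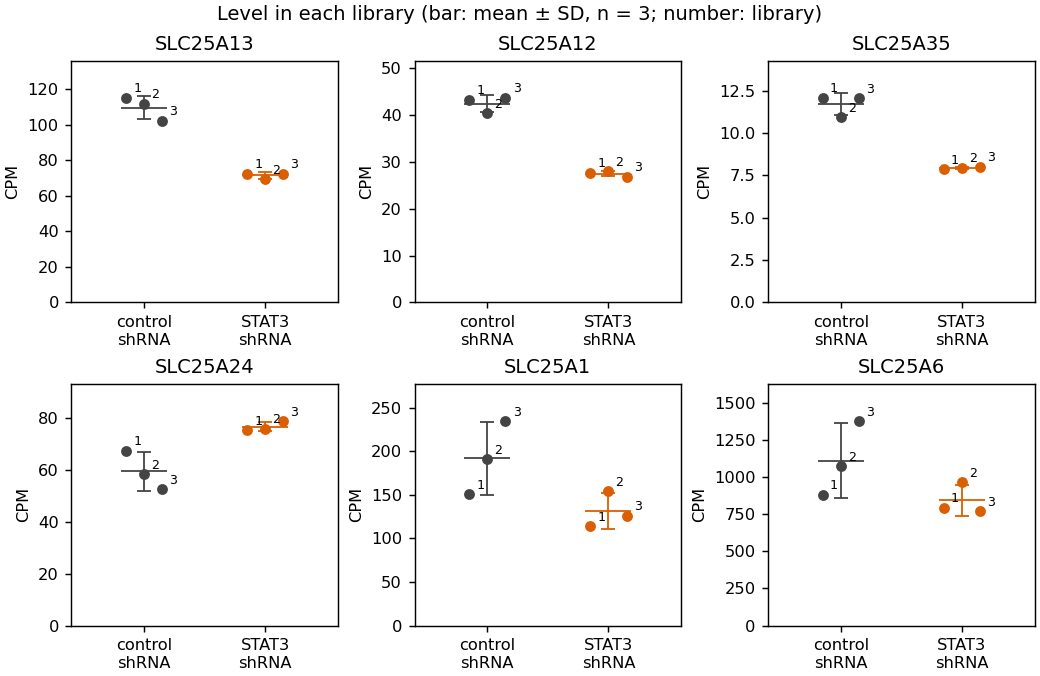
CPM (y axis, from 0) of the 4 called carriers, and of SLC25A1 and SLC25A6, in each control shRNA and STAT3 shRNA library (x axis), with library numbers beside the points and mean ± SD as bars (n = 3). SLC25A12, SLC25A13 and SLC25A35 separate the groups with little spread, while SLC25A1 ranges from 151 to 235 CPM within the control libraries and its groups overlap.

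SLC25A12 lies on chromosome 2 in a stretch of lower genes. Of its 20 nearest tested genes in GENCODE 29 order, 10 on each side, 12 were called lower and 0 higher, against 8.13% called lower over all tested genes, and their median log2 fold change was -0.52. The neighbours included the histone acetyltransferase HAT1 (-0.996 ± 0.122), which overlaps SLC25A12 on the opposite strand over 61235 bases, and the pyruvate dehydrogenase kinase PDK1 (-1.05 ± 0.156). Strand setting is not given in the sources used here, so reads in the overlap with HAT1 cannot be told apart. The part of the neighbouring genes in the SLC25A12 difference was not tested. Around SLC25A13 on chromosome 7, 3 of 20 neighbours were called lower and 1 higher, with a median of -0.05. Around SLC25A35 1 was called lower and 0 higher, and around SLC25A24 it was 0 lower and 2 higher, against 9.39% called higher over all tested genes.

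**Figure D4:**
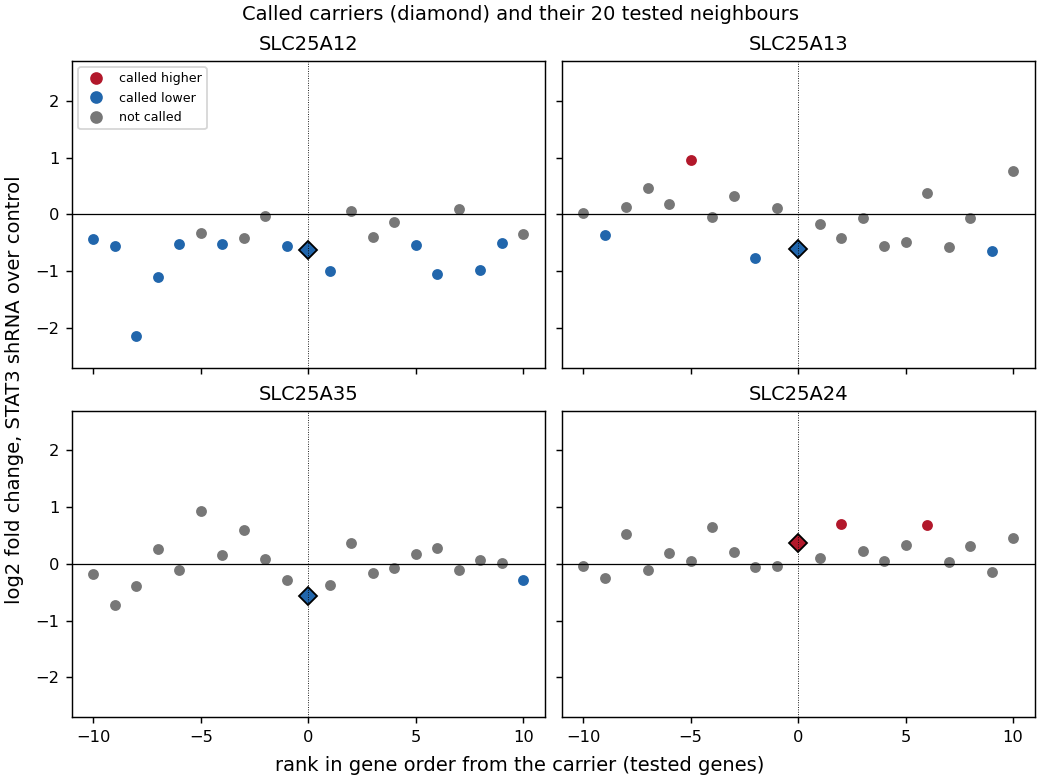
Log2 fold change (y axis, STAT3 shRNA over control) of each called carrier (diamond) and of its 10 nearest tested genes on each side, by rank in gene order (x axis), coloured by the edgeR call. Neighbours of SLC25A12 are mostly below 0, with 12 of 20 called lower, against 3 around SLC25A13 and 1 around SLC25A35, and SLC25A24 has 2 of 20 called higher and 0 lower.

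The promoters of SLC25A13 and SLC25A12 are shown because both genes were called lower. Whether the 2 falls share a basis was not tested. Given here are the 250 bases before the gene start, 5′ to 3′ on the gene's strand, from RefSeq (GRCh38.p14), with each CG step in capitals.
SLC25A13, chr7:96322099-96322348, minus strand: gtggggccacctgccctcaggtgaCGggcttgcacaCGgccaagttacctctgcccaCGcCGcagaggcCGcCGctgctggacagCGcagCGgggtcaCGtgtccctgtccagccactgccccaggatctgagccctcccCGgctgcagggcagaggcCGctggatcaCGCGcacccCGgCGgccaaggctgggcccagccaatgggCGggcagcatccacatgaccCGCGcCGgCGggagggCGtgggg
SLC25A12, chr2:171894245-171894494, minus strand: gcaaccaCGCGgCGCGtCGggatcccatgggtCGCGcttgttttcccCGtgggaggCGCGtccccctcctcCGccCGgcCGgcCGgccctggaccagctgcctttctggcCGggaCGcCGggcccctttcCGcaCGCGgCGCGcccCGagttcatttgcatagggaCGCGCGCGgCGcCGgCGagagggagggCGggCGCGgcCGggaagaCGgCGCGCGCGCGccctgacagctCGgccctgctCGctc
SLC25A12 had 42 CG steps and 77.2% G and C, and SLC25A13 had 21 and 73.6%, against medians of 11 and 58% over the same stretch of all 35116 promoters in the table. The core STAT motif TTCNNNGAA, which reads the same on both strands, was searched in 300 bases around the start (250 before, 50 after). Neither promoter held it, nor did either entry of SLC25A24, and SLC25A35 had no entry. The 2 entries of SLC25A24 had 23 and 10 CG steps.

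Among the 38 carriers with a promoter entry, 5 held the motif in an entry (13.2%, against 9.38% of all genes with an entry). Counted by entry, 5 of 48 held it (10.4%, against 7.66% of all promoters of that length). None of the 5 was called, where 17.5% of all tested genes were, and so few genes allow no reading of this. The sites of the 5 carriers are shown with the motif in capitals and 10 bases on each side.
SLC25A11, chr17:4940159-4940187, minus strand: gcgattctaaTTCGGTGAAaacagcgcct
SLC25A18, chr22:17563306-17563334, plus strand: ataaaaaaccTTCAGTGAAaaatactagc
SLC25A23, chr19:6459928-6459956, minus strand: ctagcccgtcTTCCCAGAAggaactctgg
SLC25A36, chr3:140941659-140941687, plus strand: cgcggcccctTTCATTGAAagagcccgta
SLC25A44, chr1:156193960-156193988, plus strand: aggccgtcagTTCTCGGAAgtgcggcaca
Their log2 fold changes were -0.38 ± 0.126 for SLC25A11, 1.02 ± 0.365 for SLC25A18, 0.06 ± 0.084 for SLC25A23, -0.02 ± 0.109 for SLC25A36 and -0.03 ± 0.130 for SLC25A44, of both signs. The signs of SLC25A36 and SLC25A44 turned both with library totals and with upper-quartile scaling. A match of letters is a description of these windows only.

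Other amino acid carriers did not pass the test. The glutamate carrier SLC25A18 was near the floor, with 0.350, 0.587 and 0.580 CPM against 0.939, 1.08 and 1.09 CPM, or 6 to 25 counts per library. Its groups did not overlap, but its adjusted p was 0.09. Its more abundant relative SLC25A22 had 53.2 ± 8.78 and 47.4 ± 2.92 CPM. The log2 ratio of SLC25A22 to SLC25A18 was 6.66 ± 0.245 in the control and 5.49 ± 0.0917 in the STAT3 shRNA libraries, a difference of -1.18 (exact permutation p = 0.1, the smallest that 3 against 3 libraries allow, and 0.333 after adjustment over the 10 pairs of related carriers compared). SLC25A38, which brings glycine into the matrix for heme synthesis, had 28.2, 30.4 and 26.7 CPM against 21.2, 24.5 and 24.3 CPM, without overlap (-0.29 ± 0.108, edgeR adjusted p = 0.104).

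SLC25A39, the most abundant of this group by CPM, lay at 235, 285 and 311 CPM in the control and 227, 271 and 222 CPM in the STAT3 shRNA libraries, with overlap. Its relative SLC25A40 stood at 0.30 ± 0.153 on the log2 scale (edgeR adjusted p = 0.22). The ornithine carrier SLC25A15, which serves the urea cycle, had -0.15 ± 0.0985, the carnitine-acylcarnitine carrier SLC25A20 had 0.08 ± 0.111, the basic amino acid carrier SLC25A29 had -0.25 ± 0.129, and the branched-chain amino acid carrier SLC25A44 is given above.

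The 3 ADP/ATP carriers with a row, which exchange matrix ATP for cytosolic ADP, all had values below 0, and none was called. Of all tested genes, 50.9% had values below 0 and 17.5% were called. The unadjusted edgeR p was under 0.05 for all 3 ADP/ATP carriers, as it was for 12 of the 41 carriers (29.3%) and 31.4% of all tested genes. SLC25A6 had 880, 1072 and 1376 CPM with the control hairpin, against 793, 962 and 770 CPM with the STAT3 hairpin. Control library 1 was below STAT3 shRNA library 2, so the groups overlapped (-0.40 ± 0.159, edgeR adjusted p = 0.122). SLC25A5 lay at 647, 665 and 731 CPM and at 583, 566 and 605 CPM, without overlap (-0.22 ± 0.0831, adjusted p = 0.103). SLC25A4, the heart and muscle form, had 24.5, 27.2 and 31.2 CPM against 20.1, 23.4 and 22.5 CPM, also without overlap (-0.33 ± 0.122, adjusted p = 0.0985). How reads shared by these similar genes or with pseudogene copies of SLC25A5 were counted is not given in the sources used here. The log2 ratios of SLC25A5 to SLC25A4 (exact permutation p = 0.3) and of SLC25A5 to SLC25A6 (exact permutation p = 0.5) overlapped between groups.

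Among phosphate and ATP-Mg/phosphate carriers, 1 of 4 tested was called higher and 0 lower (9.39% and 8.13% of all tested genes). SLC25A24, a calcium-regulated carrier that sets the adenine nucleotide pool of the matrix (ENSG00000085491.17, chromosome 1), had 67.4, 58.3 and 52.7 CPM with the control hairpin, against 75.5, 76.0 and 78.9 CPM with the STAT3 hairpin. All STAT3 shRNA libraries were above all control libraries, and the control libraries were the more spread. It rose from 59.5 ± 7.43 to 76.8 ± 1.87 CPM (log2 fold change 0.37 ± 0.106, edgeR adjusted p = 0.0415). The call was lost in 6 of 14 alternative fits, adjusted p being 0.0637 with the block, 0.157 and 0.0723 after dropping control library 2 and 3, and 0.128, 0.0841 and 0.158 after dropping STAT3 shRNA library 1, 2 and 3. The related SLC25A23 lay at 115, 122 and 117 CPM against 130, 117 and 122 CPM, with overlap, and SLC25A25 had 0.18 ± 0.157. The phosphate carrier SLC25A3, which supplies ATP synthase, had 563, 672 and 715 CPM against 491, 621 and 533 CPM, with overlap (-0.25 ± 0.12, adjusted p = 0.199).

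None of the 4 carriers of citrate and other carboxylates was called, where 17.5% of all tested genes were. An unadjusted edgeR p under 0.05 was met by 2, against 31.4% of all tested genes. SLC25A1, which exports citrate for fatty acid and sterol synthesis, had 151, 191 and 235 CPM with the control hairpin, against 114, 154 and 126 CPM with the STAT3 hairpin. STAT3 shRNA library 2 was above control library 1. The log2 fold change of -0.55 ± 0.167 just missed the threshold (edgeR adjusted p = 0.0522), and 5 of 14 alternative fits called it lower. SLC25A11, which exchanges oxoglutarate for malate in the malate-aspartate shuttle, had 83.52, 101 and 115 CPM against 70.8, 83.47 and 77.0 CPM, so the groups barely failed to overlap (adjusted p = 0.0722). Its 3 calls among the alternative fits were all lower. SLC25A10, the dicarboxylate carrier, had 77.6, 93.7 and 113 CPM against 93.2, 113 and 95.8 CPM, with overlap, and the oxodicarboxylate carrier SLC25A21 had 0.37 ± 0.194.

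Carriers of cofactors and other nucleotides showed no call among 9 tested, where 17.5% of all tested genes were called. None of the 9 had an unadjusted edgeR p under 0.05, against 31.4% of all tested genes. The most abundant, the pyrimidine nucleotide carrier SLC25A36, had 138, 121 and 106 CPM against 121, 115 and 125 CPM, with overlap. Fold changes of the others ran from -0.26 ± 0.131 for SLC25A26, which imports S-adenosylmethionine, to 0.62 ± 0.518 for the coenzyme A carrier SLC25A42. The SLC25A42 value was 0.19 without control library 1 and 1.12 without control library 3. Between SLC25A26 and SLC25A42 were the second pyrimidine nucleotide carrier SLC25A33 (-0.14 ± 0.136), the folate and FAD carrier SLC25A32 (-0.24 ± 0.113), the NAD carrier SLC25A51 (0.17 ± 0.206), the peroxisomal SLC25A17 (-0.11 ± 0.0988) and SLC25A16 (0.11 ± 0.198).

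Neither mitoferrin, the iron importers that feed heme and iron-sulfur cluster synthesis, was called, where 17.5% of all tested genes were. SLC25A37 had 70.5, 70.3 and 68.3 CPM with the control hairpin, against 74.2, 72.3 and 72.0 CPM with the STAT3 hairpin, a separation without overlap but of only 0.06 ± 0.08 on the log2 scale. SLC25A28 had 19.01, 20.3 and 25.4 CPM against 17.6, 18.6 and 19.1 CPM, with overlap (-0.23 ± 0.129). The log2 ratio of SLC25A28 to SLC25A37 was -1.70 ± 0.242 in the control and -1.98 ± 0.0838 in the STAT3 shRNA libraries, without overlap (exact permutation p = 0.1, adjusted 0.333). The third pair without overlap of the 10 compared was SLC25A36 over SLC25A33, with a difference of 0.12 (exact permutation p = 0.1).

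The carriers related to uncoupling proteins gave 0 calls among 3 tested, where 17.5% of all tested genes were called. An unadjusted edgeR p under 0.05 was met by 1, against 31.4% of all tested genes. SLC25A30 had 17.3, 15.6 and 14.8 CPM against 15.03, 14.4 and 14.01 CPM, and SLC25A14 had 10.7, 12.4 and 10.9 CPM against 11.0, 11.0 and 10.1 CPM, both with overlap. SLC25A27 had 5.19, 7.26 and 5.69 CPM against 8.42, 7.36 and 8.89 CPM, without overlap (0.44 ± 0.171, edgeR adjusted p = 0.113).

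Of 5 tested carriers with other or unsettled roles, 1 was called lower and 0 higher (8.13% and 9.39% of all tested genes). SLC25A35, whose substrate is not settled (ENSG00000125434.11, chromosome 17), had 12.1, 10.9 and 12.1 CPM with the control hairpin, against 7.85, 7.95 and 8.01 CPM with the STAT3 hairpin. The STAT3 shRNA values, from 209, 162 and 147 counts, were nearly identical and all under the control values. Counting error at such counts is larger than this spread, so the small SD is no measure of precision. SLC25A35 fell from 11.7 ± 0.652 to 7.94 ± 0.0812 CPM, 1.47-fold lower (log2 fold change -0.56 ± 0.122, edgeR adjusted p = 0.0131). The call was lost without STAT3 shRNA library 1 (adjusted p = 0.0679) or 3 (0.0593). RANGRF overlaps this gene on the opposite strand and is more abundant, with a log2 fold change of -0.38 ± 0.171 (adjusted p = 0.163), and without a known strand setting reads in the overlap cannot be told apart. SLC25A46, an outer membrane protein of mitochondrial shape and fission, had 47.6, 46.9 and 45.9 CPM against 50.3, 44.0 and 48.3 CPM, and SLC25A43 had 18.0, 17.6 and 16.2 CPM against 17.3, 15.02 and 15.2 CPM, both with overlap. SLC25A45 had 0.25 ± 0.152, without overlap, and SLC25A53, at 17 to 47 counts, had -0.13 ± 0.389.

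Summed over all 46 carriers, control libraries gave 3861, 4296 and 4792 CPM and STAT3 shRNA libraries gave 3513, 3903 and 3583 CPM. STAT3 shRNA library 2 was above control library 1, so the sums overlapped. Their ratio, STAT3 shRNA over control, was 0.849, and 0.908 without SLC25A3, SLC25A5, SLC25A6 and SLC25A39. As shares of the library totals the same ratios were 0.909 and 0.971.

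Control libraries differed among themselves in many carriers. Control library 3 was above library 1 in 25 of the 41 tested carriers, and the log2 difference was over 0.25 in size in 24. The 25 had a median transcript GC content of 55.4%, and the other 16 one of 43.7%. Across the 41 carriers, the log2 ratio of control library 3 to library 1 had a Spearman rho of 0.63 and a Pearson r of 0.52 with GC content, and over all tested genes rho was 0.61. All points share the same pair of libraries, and genes are not independent replicates. The called carriers SLC25A12 (0.01) and SLC25A35 (0.00) hardly differed between these libraries, SLC25A13 (-0.17) and SLC25A24 (-0.36) were lower in library 3, and the uncalled SLC25A1 (0.64) and SLC25A6 (0.64) were higher. Without control library 1, 8 carriers were called lower and 2 higher, where 13.1% and 13.4% of all tested genes were. Added to the list were SLC25A1, SLC25A4, SLC25A6, SLC25A11 and SLC25A29 among the lower and SLC25A40 among the higher. The part of GC content in the group differences was not tested. Its Spearman rho with the STAT3 shRNA log2 fold change was -0.18 across the carriers and -0.16 over all tested genes.

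**Figure D5:**
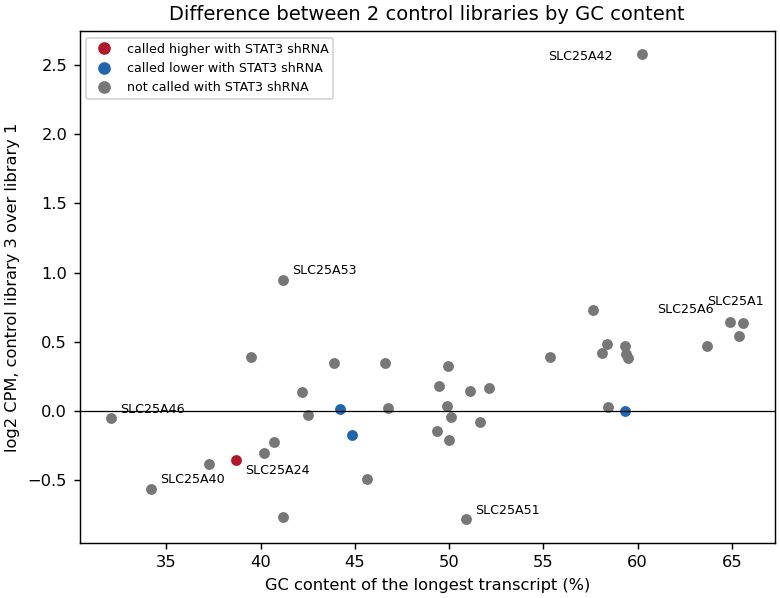
Log2 ratio of CPM in control library 3 to control library 1 (y axis) against GC content of the longest transcript in percent (x axis) for the 41 tested carriers, coloured by the STAT3 shRNA call. SLC25A1 and SLC25A6, with high GC content, lie above 0, SLC25A35 at 59.3% lies at 0, and SLC25A42 stands apart at 2.58.

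Genes that work with the carriers were read from the same fit. The translocase subunits and chaperones that bring carriers to the inner membrane gave 0 calls among 15 tested (17.5% of all tested genes were called), with DESeq2 and limma-voom also at 0. An unadjusted edgeR p under 0.05 was met by 4, against 31.4% of all tested genes. Of the 15, 14 had values below 0, against 50.9% of all tested genes, with a median log2 fold change of -0.23. The receptor subunit TOMM20 had 392 ± 37.5 and 408 ± 18.8 CPM (0.06 ± 0.0937), and TOMM70, the receptor that carriers use, had 182 ± 20.5 and 180 ± 12.7 CPM (-0.02 ± 0.104). Without control library 1, 5 of the 15 were called lower, and without STAT3 shRNA library 2 it was 1.

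Of 23 other transporters of the mitochondrial membranes, 3 were called lower and 1 higher (17.5% of all tested genes were called in either direction). VDAC2, a pore of the outer membrane, fell from 281 ± 5.35 to 202 ± 15.1 CPM, the porphyrin transporter ABCB6 from 44.3 ± 5.2 to 30.5 ± 2.15 CPM, and the uncoupling protein UCP2, a family member under another name, from 30.4 ± 2.96 to 22.1 ± 1.79 CPM. SFXN2, a sideroflexin, rose from 11.1 ± 0.728 to 21.0 ± 0.322 CPM (0.91 ± 0.108). The lower count was 1 when control library 2 or STAT3 shRNA library 1 was dropped and 5 when control library 1 was. The higher count was 2 without control library 1 and 3 with library totals.

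Of 25 tested enzymes that feed or use the carriers, 6 were called lower and 2 higher (8.13% and 9.39% of all tested genes), with a median log2 fold change of 0.02. CPS1, the mitochondrial entry enzyme of the urea cycle, fell from 4642 ± 748 to 3044 ± 171 CPM, GPD2, of the glycerophosphate shuttle, from 105 ± 12 to 75.3 ± 1.98 CPM, and CPT2, which acts after the carnitine carrier, from 41.2 ± 1.84 to 31.8 ± 0.972 CPM. In the malate-aspartate shuttle, which SLC25A11, SLC25A12 and SLC25A13 serve, the cytosolic aspartate aminotransferase GOT1 fell from 73.8 ± 1.73 to 58.2 ± 1.38 CPM (-0.34 ± 0.082, edgeR adjusted p = 0.0201). Its other enzymes, named here after their values were seen, were not called: GOT2 had -0.18 ± 0.0831, MDH1 0.02 ± 0.0854 and MDH2 0.02 ± 0.0761. The lower count of enzymes was 2 with library totals, 3 with the block, 2 without control library 2, and 1, 3 and 2 without STAT3 shRNA libraries 1, 2 and 3. The higher count was 0 or 1 in all single-library omissions but that of control library 3. Positions of the genes in these lists, relative to the stretch of lower genes around SLC25A12, are not given here. The part of position in their values was not tested.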

How the data were processed

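The authors deposited one table of whole-number counts per gene for 6 libraries, raw as far as the values show. The aligner, counting program, strand setting, build and annotation were not given in the sources used here. Groups and library numbers were taken from the titles.

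With edgeR 4.0.16 in R 4.3.3, filterByExpr (minimum count 10, minimum total 15) left 14999 genes, scaled by TMM and tested with the robust quasi-likelihood F test, two-sided, with group only in the model. SE is the size of the log2 fold change divided by the square root of F. Alternatives used DESeq2 1.42.0 and limma 3.58.1, other scalings, no filter, a replicate block and leaving out each library. Simulated counts were used to test the procedure. Transcript length, GC content and gene order came from GENCODE 29, matched by identifier without version, which held all 46 carriers.

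Carriers and lists were chosen with earlier results of these data known. Values were given per library for every called carrier and for the 2 most abundant of each role, and for related lists up to 4 called genes with the smallest FDR. Other values were added after they were seen. The values of 1 tested carrier that this rule names are not reported here, but it is counted in the totals. Library pairs within a group differed by 4.20 to 43.0 chi-square units per degree of freedom, more than counting error alone would give. This cannot tell separate cultures from separate preparations of the same culture or RNA.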

Additional observations from a re-analysis of the deposited data

How the results depend on the processing

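Over 14 alternative fits, SLC25A12 and SLC25A13 were called lower each time. The count of 3 lower carriers was 5 without the low-count filter and with DESeq2, and ranged from 2 to 8 when a library was left out, the 8 without control library 1. The count of 1 higher carrier was 0 with the replicate block and ranged from 0 to 2 when a library was left out. Same-numbered libraries had correlations of 0.279, 0.191 and -0.227 between their deviations from the group means. Differently numbered libraries had correlations of -0.461 to 0.333, so same-numbered ones did not stand out. With so few libraries this cannot exclude pairing by number. With library number as a block 2278 genes were called, against 2627 without it, and 4 carriers were lower. The median log2 fold change of the carriers was -0.0279 with library totals, which moved the median of all genes by 0.10.

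Values that changed sign belonged to carriers that were not called. With upper-quartile scaling SLC25A36 was 0.0373 and SLC25A44 0.0191, and with library totals SLC25A36 was 0.0784, SLC25A44 0.0615 and SLC25A14 0.0148. Leaving out each library in turn gave log2 fold changes of -0.102 to 0.0977 for SLC25A36, -0.127 to 0.0772 for SLC25A44, -0.0250 to 0.238 for SLC25A10, -0.0185 to 0.0761 for SLC25A46, -0.0484 to 0.298 for SLC25A51, -0.0867 to 0.269 for SLC25A16 and -0.410 to 0.384 for SLC25A53.

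Leaving out a library gave 0 to 5 lower import genes, and 1 without the filter. Other transporters gave 1 to 2 higher and 1 to 5 lower when a library was left out, and 2 higher with upper-quartile scaling or 3 with library totals. The 6 lower enzymes were 2 with library totals, 3 with the block and 1 to 5 when a library was left out. The 2 higher enzymes were 1 with DESeq2 size factors, without the filter and with the DESeq2 test, 0 with limma-voom, non-robust dispersion and the block, and 0 to 2 when a library was left out. The cause was not tested. Depth limits carriers under about 1 CPM.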

Other observations

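SLC25A42, a coenzyme A carrier, had 20 counts in control library 1, against 95 and 132 in control libraries 2 and 3 and 122 to 161 in the STAT3 shRNA libraries. The antisense row SLC25A21-AS1, chosen after its values were seen, had 6 counts in that library, 35 and 43 in the other control libraries, and 29 to 50 in the STAT3 shRNA libraries. The pseudogene row SLC25A1P5 had 20 counts in control library 1, 13 in STAT3 shRNA library 3 and 0 in the other 4 libraries. Of 9 antisense and pseudogene rows with an SLC25A name, 3 were tested and none was called by edgeR (adjusted p of 0.168 for SLC25A25-AS1). Of all tested genes, 17.5% were called.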
